A study of Mus musculus with 6 samples.

Results

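The genes described here pack the DNA of the sperm head. They are the protamine genes *Prm1*, *Prm2* and *Prm3*, the transition protein genes *Tnp1* and *Tnp2*, the spermatid and testis linker histone genes *H1fnt*, *Hils1* and *Hist1h1t*, and *Brdt*, which encodes a bromodomain protein. A probe was taken as a member when the gene name in its array annotation was one of these 9 names. This gave 12 of 41174 probes, for 8 of the 27376 genes that the annotation names. *Prm3* had no probe by its name or by a RefSeq accession, so no value is given for it. All 12 probes were among the 28606 probes tested, a probe being tested when the scanner software placed it well above background on each of the 3 arrays of either genotype, and all 12 were so on all 6 arrays. The arrays held total RNA of whole testes from 3 *Prss55*-/- and 3 wt male mice aged 6 to 8 weeks, 1 array per mouse and 1 dye (Cy3). *Prss55* encodes a serine protease of the testis. The *Prss55*-/- mice were made by homologous recombination with a vector that carried a PGK-Neo cassette. Both genotypes were on a mixed 129Sv/C57BL/6 background, and heterozygous parents were intercrossed to give the offspring. Whole testis holds germ cells of every stage together with somatic cells, so fewer spermatids and less RNA per spermatid cannot be told apart.

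During spermiogenesis most histones are taken off the DNA of the spermatid. Testis linker histones take the place of somatic ones, acetylated histones are bound by BRDT, transition proteins take the place of histones for a short time, and protamines then pack the DNA into the compact sperm head. The genes for transition proteins and protamines are transcribed in round spermatids, and their mRNAs are stored and translated later in elongating spermatids. *Prm1*, *Prm2*, *Prm3* and *Tnp2* lie next to each other on chromosome 16.

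The 6 arrays had 0 saturated spots, and 69.5% to 72.9% of the spots lay well above background. 1 slide held the *Prss55*-/- arrays and 2 other slides the wt arrays, so slide and genotype cannot be told apart. *Prss55*, the targeted gene, had a single probe. Its normalized log2 signal was 15.08, 14.95 and 14.93 in *Prss55*-/- testis and 15.87, 15.77 and 16.01 in wt testis, a difference of -0.90 (SE 0.080, limma adjusted p = 0.0100). It was not absent from *Prss55*-/- testis, where it stood at 53.6% of the wt level. Because the probe may lie outside the deleted part, it does not by itself settle whether these arrays hold RNA of homozygous mutants. For its knockout mice the paper reports loss of *Prss55* RNA by RT-PCR and of the protein by Western blotting and immunofluorescence. It does not say whether these were the mice on the arrays. Leaving out *Prss55*-/- replicate 2 or 3 raised the limma adjusted p of the *Prss55* probe to 0.068 each, and leaving out wt replicate 1 raised it to 0.066.

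None of the 8 genes of sperm chromatin packing that had a probe passed the adjusted threshold of 0.05 between *Prss55*-/- and wt testis. Of the 12 probes, 0 were called by limma, beside 346 of the 28606 tested probes (1.21%), of which 0.559% were higher and 0.65% lower in *Prss55*-/- testis. An unadjusted p below 0.05 was found for 2 of the 12, beside 19.1% of the tested probes. The *Prss55*-/- arrays did not overlap the wt arrays for 4 of the 12, beside 26.3% of the tested probes (13.4% higher and 12.9% lower). These shares lie near the background. The 2 probes with an unadjusted p below 0.05 were those of *Tnp2* and *H1fnt*, both lower in *Prss55*-/- testis, and the other 2 that did not overlap were the *Brdt* probes, both higher. The differences of all 12 probes lay between -0.20 and 0.21 on the log2 scale, and their adjusted p between 0.125 and 0.890. Over the brightest probe of each gene the median difference was -0.039, beside 0.0019 over all tested probes. The methods' t-test, with Benjamini-Hochberg adjustment, also called 0 of the 12. The paper's own rule was another one, a t-test p below 0.05, with no adjustment named, and a fold change of at least 2.

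**Figure D1:**
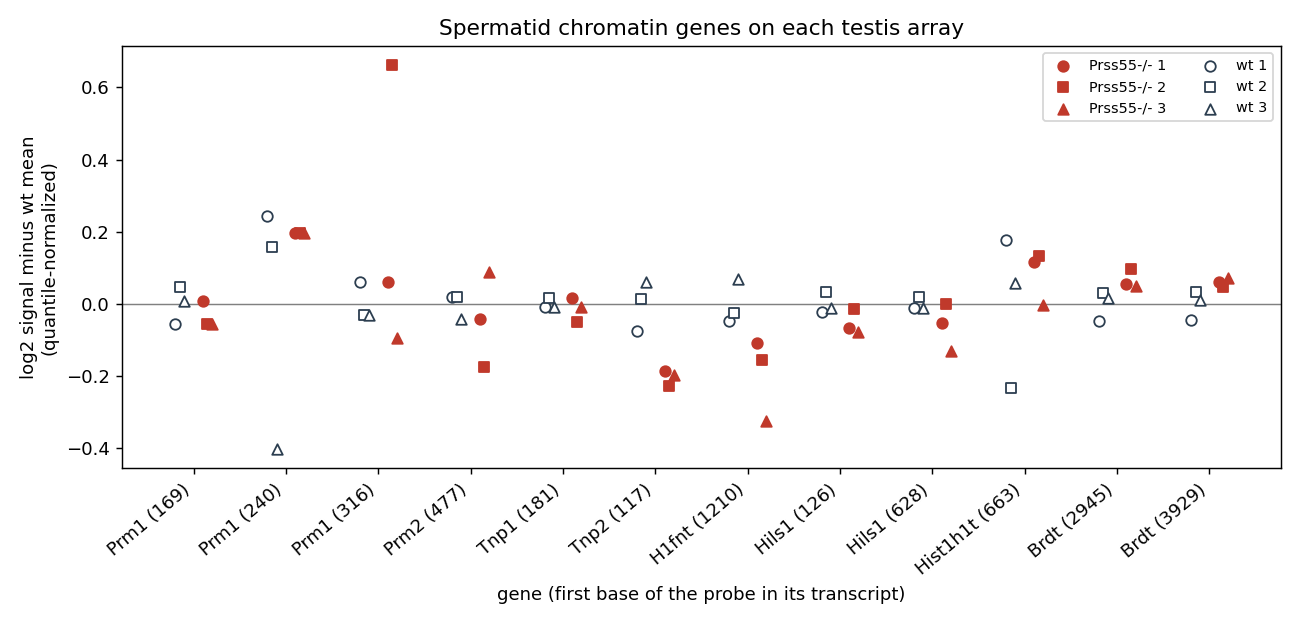
Quantile-normalized log2 signal of each probe on each array, minus the mean of the 3 wt arrays (filled red symbols, *Prss55*-/-; open symbols, wt; the symbol shape gives the replicate number). The number in parentheses is the base of the transcript where the probe starts. The *Tnp2* and *H1fnt* symbols of *Prss55*-/- lie below all wt symbols, those of both *Brdt* probes lie above, and 1 array stands apart for each of the *Prm1* probes from base 240 (wt replicate 3) and base 316 (*Prss55*-/- replicate 2).

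*Tnp2*, which encodes the zinc-binding transition protein 2, had the smallest p of the 12. Its 60-base probe lies at chr16:10788572-10788631 of the mm9 build, on the minus strand, and starts at base 117 of the transcript. It is shown because the clearest separation of the genotypes rests on it alone, with runs of 3 or more G or C in capitals.
Tnp2: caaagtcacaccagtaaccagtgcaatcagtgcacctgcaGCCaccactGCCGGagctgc
The normalized log2 signal of *Tnp2* was 17.87, 17.83 and 17.86 in *Prss55*-/- testis and 17.98, 18.07 and 18.12 in wt testis. All 3 *Prss55*-/- arrays were lower than all 3 wt arrays. The difference was -0.20 (SE 0.053, 95% interval -0.33 to -0.075, unadjusted p = 0.0081, limma adjusted p = 0.125), or 86.9% of the wt level (79.5% to 94.95%). A two-sided exact permutation test gave p = 0.1, the smallest that 3 arrays against 3 allow. The difference kept its sign in all 17 alternatives, from -0.23 to -0.13, with adjusted p from 0.118 to 0.630. With each array scaled to its 75th percentile it was -0.14, and the genotypes still did not overlap. On the signals as scanned, with no scaling between arrays, it was -0.12 and the genotypes overlapped, because wt replicate 2 was at 246157 scanner units and *Prss55*-/- replicate 3 at 249482.

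*Tnp1*, which encodes the abundant and basic transition protein 1, had the highest mean signal of all genes on these arrays. Its probe lies at chr1:73061834-73061893 (mm9, minus strand). The first 30 bases are given with the stop codon in capitals, because the probe covers the end of the coding sequence and the start of what follows it.
Tnp1: gcaattaccgatcccacttgTGAtgcggca
The normalized log2 signal of *Tnp1* was 18.92, 18.85 and 18.90 in *Prss55*-/- testis and 18.90, 18.92 and 18.90 in wt testis. The genotypes overlapped, and the difference was -0.014 (SE 0.044, 95% interval -0.12 to 0.094, limma adjusted p = 0.890). With the 75th percentile in place of quantile normalization it was also -0.014, with a wider interval of -0.21 to 0.18. The interval leaves room for a change of *Tnp1* of either sign, and it is not a limit of detection. *Tnp1* and *Tnp2* thus had differences of -0.014 and -0.20, and the difference between these was not tested.

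*Prm1*, the gene of protamine 1, the arginine-rich protein that packs the DNA of all mammalian sperm, had 3 probes. They lie on the minus strand of chromosome 16 (mm9) and start at bases 169, 240 and 316 of the transcript. The probe from base 169 spans 152 bases of the genome, from 10796597 to 10796748, so it crosses an intron, and it lies ahead of the stop codon. The probe from base 240 (10796526 to 10796585) holds the stop codon, in capitals in its first 30 bases below, and the probe from base 316 (10796450 to 10796509) lies behind it. The sequences are shown because the probes disagree and differ in base composition: 70.0% of the bases are G or C in the probe from base 169 (runs of 3 or more in capitals), 38.3% in that from base 240 and 48.3% in that from base 316.
Prm1 from base 169: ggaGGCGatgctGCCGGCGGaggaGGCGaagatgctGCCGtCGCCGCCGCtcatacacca
Prm1 from base 240: aaatacTAGatgcacagaatagcaagtcca
The probe from base 169 had normalized log2 signals of 18.85, 18.79 and 18.79 in *Prss55*-/- testis and 18.79, 18.90 and 18.85 in wt testis. The genotypes overlapped, with a difference of -0.035 (SE 0.050, 95% interval -0.16 to 0.088, limma adjusted p = 0.745). Scaled to the 75th percentile, this difference was 0.0029 (-0.19 to 0.20), so its sign depended on the scaling.

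The other probes of *Prm1* each turned on 1 spot. The probe from base 316 had 18.32, 18.92 and 18.17 in *Prss55*-/- testis and 18.32, 18.23 and 18.23 in wt testis, a difference of 0.21 (SE 0.19, limma adjusted p = 0.592). Its signal was 532641 scanner units on the array of *Prss55*-/- replicate 2 and between 289472 and 329130 on the other 5 arrays. Without that array the difference was -0.024. The probe from base 240 had 18.02 on each of the *Prss55*-/- arrays and 18.07, 17.98 and 17.42 in wt testis, a difference of 0.20 (SE 0.17, limma adjusted p = 0.564). It ranked fourteenth in brightness on each *Prss55*-/- array, and quantile normalization gives equal ranks equal values. It was low on the array of wt replicate 3, with 188984 scanner units against 233950 to 290094 elsewhere, and without that array the difference was -0.00010. On those 2 arrays the other *Prm1* probes did not stand apart in the same direction.

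**Figure D2:**
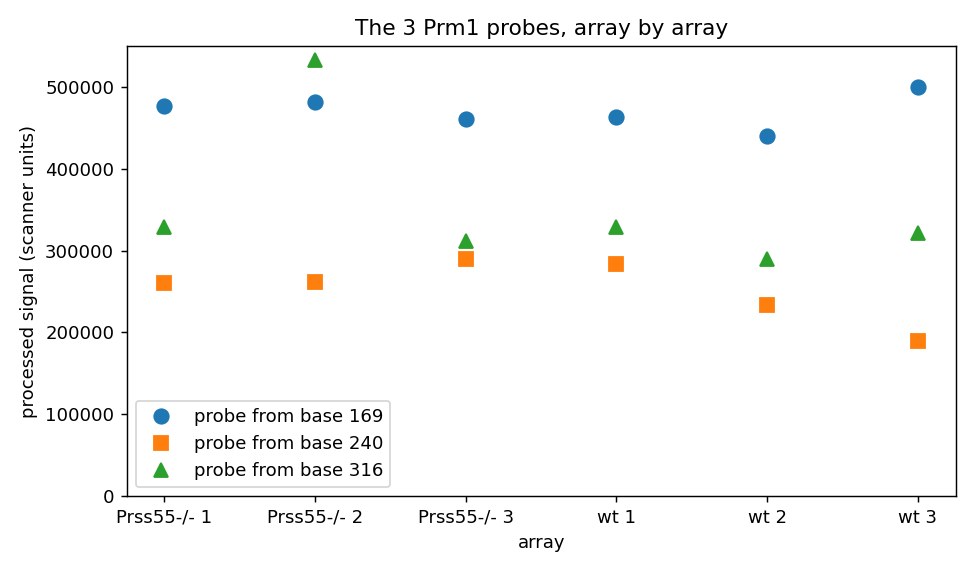
Processed signal of the 3 *Prm1* probes on each of the 6 arrays, in scanner units and before any scaling between arrays (each point is 1 spot). The probe from base 316 stands at 532641 units on *Prss55*-/- replicate 2, and the probe from base 240 at 188984 units on wt replicate 3, while the probe from base 169 stays between 439489 and 499568 on all arrays.

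*Prm2* encodes protamine 2, which is made as a precursor and shortened on the DNA. Its probe lies at chr16:10791549-10791608 (mm9, minus strand) and starts at base 477 of the transcript. The normalized log2 signal was 18.79, 18.66 and 18.92 in *Prss55*-/- testis and 18.85, 18.85 and 18.79 in wt testis. The *Prss55*-/- arrays included both the lowest and the highest value. The difference was -0.043 (SE 0.075, 95% interval -0.23 to 0.14, limma adjusted p = 0.790). It turned positive in 5 of 17 alternatives and was 0.049 (-0.11 to 0.21) with the 75th percentile. In all, 5 member probes lay on chromosome 16 within 8.18 kb, in 3 genes, and of these the brightest probes of *Prm1* and *Prm2* differed by less than the spread between arrays, while *Tnp2* did not overlap between genotypes.

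Among the linker histones, *H1fnt*, now named *H1f7*, encodes a spermatid H1 that is needed for normal condensation of the sperm nucleus. Its probe lies on chromosome 15 (98086469 to 98086528, mm9). The normalized log2 signal was 17.54, 17.49 and 17.32 in *Prss55*-/- testis and 17.60, 17.63 and 17.72 in wt testis. All 3 *Prss55*-/- arrays were lower than the wt arrays, with replicate 3 the lowest. The difference was -0.20 (SE 0.073, 95% interval -0.37 to -0.018, unadjusted p = 0.036, limma adjusted p = 0.229; two-sided exact permutation p = 0.1). It was -0.13 without *Prss55*-/- replicate 3. With the 75th percentile it was -0.12 (-0.40 to 0.15), and the genotypes then overlapped.

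*Hils1* encodes a spermatid histone that resembles H1 and had 2 probes on chromosome 11. The brighter one had 17.57, 17.62 and 17.49 in *Prss55*-/- testis and 17.61, 17.64 and 17.61 in wt testis, a difference of -0.061 (SE 0.052, limma adjusted p = 0.562) that was 0.015 under the 75th percentile. The other had 16.24, 16.29 and 16.23 in *Prss55*-/- testis and 16.28, 16.34 and 16.29 in wt testis, a difference of -0.053 (SE 0.046, limma adjusted p = 0.568). The 2 probes, which start at bases 628 and 126 of the transcript, gave close differences, and the genotypes overlapped for both. *Hist1h1t*, now named *H1f6*, encodes the H1 of pachytene spermatocytes and early spermatids. Its probe on chromosome 13 had 12.70, 12.71 and 12.58 in *Prss55*-/- testis and 12.76, 12.35 and 12.64 in wt testis. The wt arrays held the highest and the lowest value, and the difference was 0.083 (SE 0.11, 95% interval -0.19 to 0.36, limma adjusted p = 0.725). It was -0.035 without wt replicate 2.

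*Brdt* encodes the testis bromodomain protein, which binds acetylated histones and is needed in meiosis and for the removal of histones. Both of its probes lie on chromosome 5. The brighter one, from base 2945, had 12.31, 12.34 and 12.30 in *Prss55*-/- testis and 12.20, 12.28 and 12.26 in wt testis, a difference of 0.068 (SE 0.047, 95% interval -0.046 to 0.18, limma adjusted p = 0.472). The other, from base 3929, had 11.44, 11.43 and 11.46 in *Prss55*-/- testis and 11.34, 11.42 and 11.39 in wt testis, a difference of 0.060 (SE 0.045, 95% interval -0.050 to 0.17, limma adjusted p = 0.507). For both probes the 3 *Prss55*-/- arrays lay above the 3 wt arrays (p = 0.1 each in a two-sided exact permutation test), and both differences stayed positive in all 17 alternatives. With the arrays scaled to the spike-in controls the genotypes overlapped for both.

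**Figure D3:**
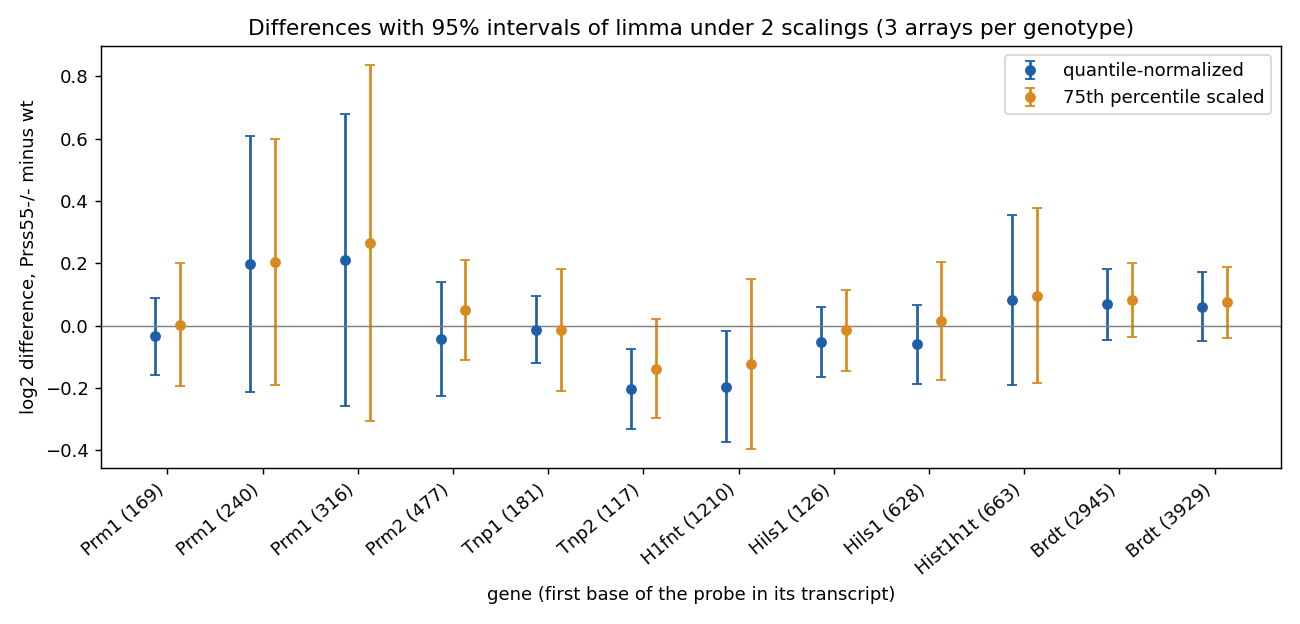
Difference in log2 signal, *Prss55*-/- minus wt, of each probe with its 95% interval from limma (3 arrays per genotype), with the arrays quantile-normalized (blue) or scaled to their 75th percentile (orange). The quantile-normalized intervals of *Tnp2* and *H1fnt* end below 0 at -0.075 and -0.018, all 10 other intervals and all 75th percentile intervals include 0, and the intervals of *Prm1* from base 169 and *Tnp1* widen under the 75th percentile.

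The brightest of these genes sat at the top of the scale. The spots of *Tnp1*, *Prm1* from base 169 and *Prm2* held ranks 1 to 5 of 43379 spots on every array, as positions on the scanner's scale rather than as a comparison of mRNA amounts between genes. The 10 genes with the highest mean signal were *Tnp1*, *Rn18s*, *Prm1*, *Prm2*, *Ptprz1*, *Ubb*, *Odf2*, *Smcp*, *Dkkl1* and *Ldhc*. Each array was scanned at a high and a low gain, and the signal of bright spots was taken from the low-gain scan and multiplied by 9.63 to 9.80. This was so for 4.64% to 5.22% of all spots, and on all 6 arrays for 9 member probes, those of the protamines, the transition proteins, *H1fnt* and *Hils1*. The probes of *Hist1h1t* and *Brdt* were read at high gain on all arrays. No member spot had a saturated pixel.

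The distance to the scanner's limit was small for 3 genes. The raw mean signal of *Tnp1* stood at 70.1% to 75.4% of the saturation value of its array, so at most a further 1.33-fold to 1.43-fold increase could have been recorded. The corresponding headroom was 1.30-fold to 1.44-fold for *Prm1* from base 169 and 1.25-fold to 1.45-fold for *Prm2*. It was larger for *Tnp2* (2.04-fold to 2.54-fold), *H1fnt* (2.84-fold to 3.67-fold) and the brighter *Hils1* probe (3.11-fold to 3.53-fold). The scanner software also fits the added spike-in RNAs with a line and reports where that line ends at its bright end, at 464098 to 499804 units. In all, 12 spots lay above that end over the 6 arrays, and 9 of them were member spots, 4 of *Tnp1*, 3 of *Prm1* from base 169, 1 of *Prm1* from base 316 and 1 of *Prm2*. They numbered 2, 3 and 2 on the *Prss55*-/- arrays and 0, 0 and 2 on the wt arrays. The brightest spike-in, with 32 spots an array, had a median of 213845 to 264398 units, and 4 member probes were above it on all 6 arrays, so no control RNA measured the response at their level. That spike-in was itself 0.11 higher on the log2 scale on the *Prss55*-/- arrays before scaling.

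**Figure D4:**
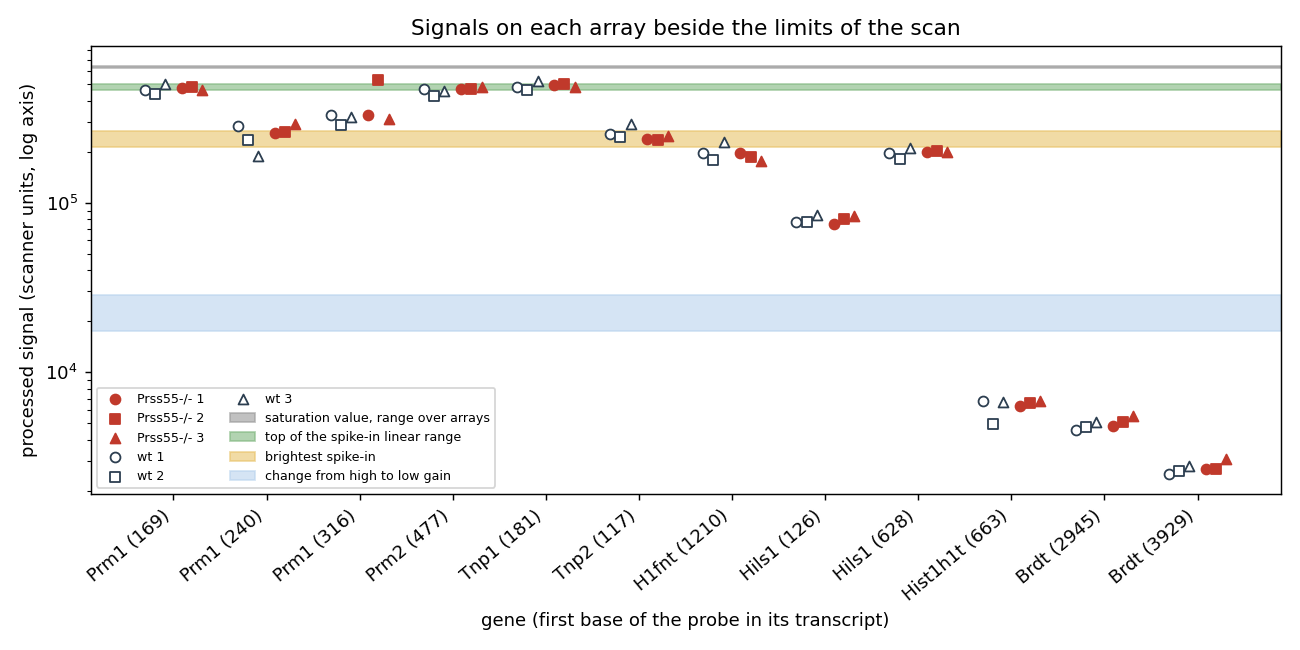
Processed signal of each probe on each array (log axis, scanner units; filled red symbols, *Prss55*-/-; open symbols, wt) with bands for the saturation value, the bright end of the line fitted to the spike-ins, the median signal of the brightest spike-in and the signals where the high-gain scan gives way to the low-gain scan, each as its range over the 6 arrays. *Tnp1*, *Prm1* from base 169 and *Prm2* lie in or beside the band at 464098 to 499804 units, and *Hist1h1t* and *Brdt* lie below the change of gain.

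Quantile normalization adds a limit of its own, since it gives the brightest spot of every array the same value, 18.92 here, although the brightest log2 signals ran from 18.82 to 19.02 before it. The wt mean of *Tnp1* was 0.018 below that value, that of *Prm1* from base 169 was 0.075 below and that of *Prm2* 0.088 below. No increase larger than these could therefore appear in *Prss55*-/- testis for these probes after quantile normalization. A decrease could appear only where a spot lost rank, the values of ranks 1, 4 and 5 being 18.92, 18.79 and 18.66. A decrease shared by these genes that kept their ranks would be hidden as well. The SD between arrays of a genotype was 0.026 for *Tnp1* after quantile normalization against 0.10 with the 75th percentile, and 0.045 against 0.11 for *Prm1* from base 169. The gap depended on the scaling set beside it. Unscaled, the SD was 0.069 for *Tnp1* and 0.070 for *Prm1* from base 169, and with spike-in scaling it was 0.056 and 0.051. *Prm2* had a larger SD after quantile normalization than with the 75th percentile (0.096 against 0.078). Among the 129 tested probes with a mean above 17 on the log2 scale the median SD was 0.057 after quantile normalization and 0.083 with the 75th percentile, limma called 0 (7 had an unadjusted p below 0.05), and the largest difference was 0.36. Among the 399 probes from 16 to 17 the median SD was 0.058 and 0.067, and 0.501% were called. After quantile normalization the top class thus had nearly the same SD as the class just below it. Among the 8975 probes up to 8, the dimmest, the SD was 0.16 under both scalings and 1.54% were called. The scaling also moved the signs, from 7 negative and 5 positive member differences after quantile normalization to 4 negative and 8 positive with the 75th percentile. Of the 346 calls among all probes 46.2% were higher in *Prss55*-/- testis, against 58.9% of 358 with the 75th percentile, where the median of all tested probes was 0.024. The members' median was 0.0088 on that scale.

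**Figure D5:**
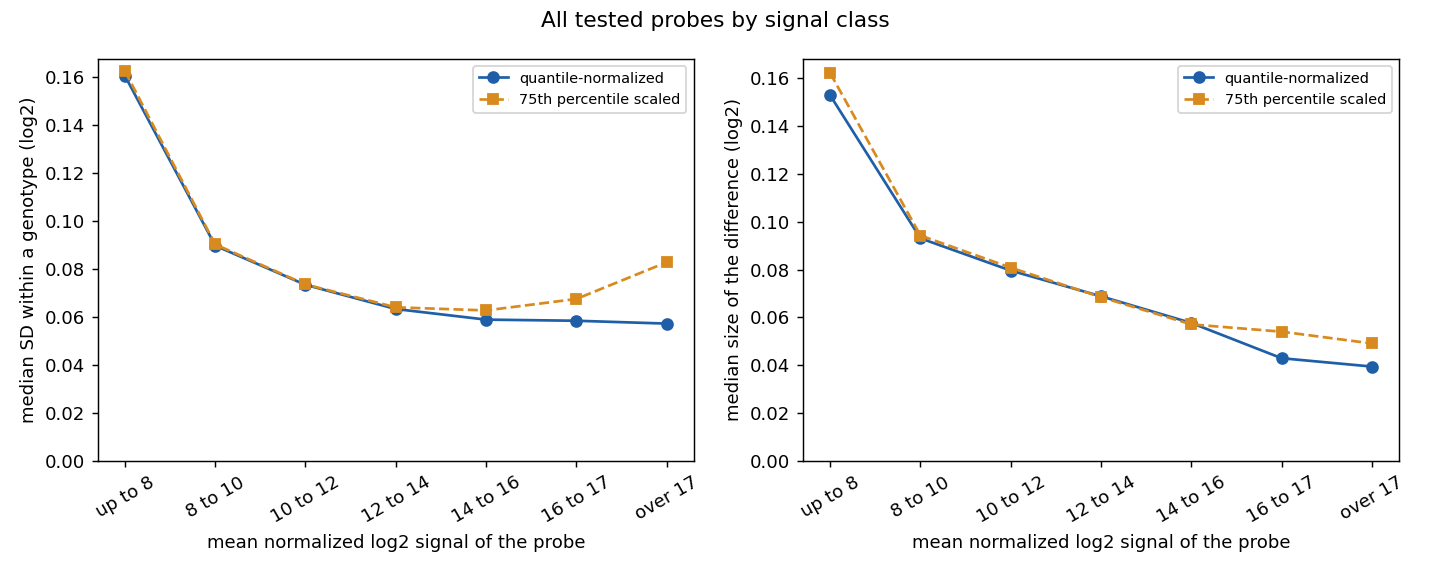
All tested probes grouped by their mean normalized log2 signal, with the median SD between arrays of a genotype (left) and the median size of the difference between genotypes (right), quantile-normalized (blue) or scaled to the 75th percentile (orange). Above 17, where the protamine, transition protein, *H1fnt* and brighter *Hils1* probes lie, the median SD is 0.057 under quantile normalization and 0.083 under the 75th percentile.

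Companion genes were counted in 6 lists with 124 tested genes in all, 5 lists of genes that act on the same process and 1 list of 11 genes chosen for their place beside the chromosome 16 cluster. By the brightest probe 1 of them was called (0.806%), beside 1.39% of all 19181 genes, and by any probe it was also 1, beside 1.71%. The list of histone removal and acetylation had 28 tested genes, of which 1 rose and 0 fell, with a median difference of 0.0038. The gene that rose was *Epc2*, a subunit of the NuA4 histone acetyltransferase complex. Its brighter probe had 12.48, 12.46 and 12.46 in *Prss55*-/- testis and 11.83, 11.996 and 11.90 in wt testis, a difference of 0.56 (SE 0.056, limma adjusted p = 0.014) with no overlap. Its other probe did not follow it, with 11.19, 11.31 and 11.35 in *Prss55*-/- testis, 11.42, 11.38 and 11.07 in wt testis and a difference of -0.0072 (limma adjusted p = 0.978). The adjusted p of the brighter probe was above 0.05 in 6 alternatives, at 0.077 with spike-in scaling, 0.063 by the methods' t-test, 0.120 with a replicate block, 0.093 each with *Prss55*-/- replicate 2 or 3 left out and 0.066 with wt replicate 1 left out. The next largest difference of that list was that of *Parp2*, an enzyme of DNA strand break repair, at 0.34 (limma adjusted p = 0.094).

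In the 5 other lists limma and the methods' t-test, both with Benjamini-Hochberg adjustment, called 0 genes. Of 25 tested histone variants and chaperones 6 had an unadjusted p below 0.05, 5 of them higher, beside 19.1% of all tested probes, and the median difference was 0.023. *Supt16h* (*Supt16* on the array), a subunit of the FACT histone chaperone, had 7.70, 8.43 and 8.51 in *Prss55*-/- testis and 7.09, 6.83 and 6.91 in wt testis, a difference of 1.27 (SE 0.22, limma adjusted p = 0.062) with no overlap. With spike-in scaling its adjusted p was 0.017, and without *Prss55*-/- replicate 1 it was 0.0036, where *Cenpa* and *Parp2* were called as well. *Npm3*, a histone-binding nucleoplasmin, had a difference of 0.59 (limma adjusted p = 0.375). Of 18 tested regulators of protamine and transition protein transcription 3 had an unadjusted p below 0.05, the median was 0.018, and the largest differences were 0.37 for *Kif17*, which moves the activator ACT in spermatids (limma adjusted p = 0.413), and 0.24 for *Taf4b* (0.424). Of 25 tested genes for the storage and translation of these mRNAs 0 had an unadjusted p below 0.05, the median was 0.021, and the largest were *Cpeb1* at 0.19 and *Tdrd7* at 0.12. Of 17 tested genes of nuclear shaping 6 had an unadjusted p below 0.05 (again beside 19.1% of all tested probes), 4 of them higher, and the median was 0.018. The largest there were *Sun5*, which anchors the sperm tail to the head, at 0.23 (limma adjusted p = 0.169) and *Spem1* at -0.20 (0.237). Of 11 tested genes beside the chromosome 16 cluster 4 had an unadjusted p below 0.05, the median was -0.017, and the largest were *Rmi2* at 0.28 and *Snn* at -0.27.

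Markers of the cells of the testis were read beside these genes. Limma and the methods' t-test called 0 genes of the 10 marker lists, and 15 of their 58 tested entries had an unadjusted p below 0.05, beside 19.1% of all tested probes. The 8 markers of elongating spermatids, members left out, had a median difference of -0.018 (range over genes -0.069 to 0.11), which ran from -0.067 to 0.0078 with 1 array left out and was positive with wt replicate 2 or 3 left out. Of these 8, 0 did not overlap, and their summed log2 signal was 19.91 to 19.96 in *Prss55*-/- testis and 19.84 to 20.00 in wt testis. The 7 markers of round spermatids were all positive, with a median of 0.14, and 4 did not overlap, beside 26.3% of all tested probes (13.4% higher); their sum was 17.80 to 17.92 against 17.73 to 17.81. *Tnp2* and *H1fnt* had negative differences both after quantile normalization and with the 75th percentile. The median of elongating spermatid markers was negative after the first (-0.018) and positive with the second (0.024). That of round spermatid markers was positive with both (0.14 and 0.15). Limma called none of these genes, and a relation between them was not tested. The 5 tested markers of Leydig cells were all negative, with a median of -0.62 and a sum of 14.96 to 15.65 against 15.64 to 15.84. *Prss55*-/- replicate 1 had 12.75 for *Cyp11a1*, a gene for which the genotypes overlapped. For *Star* that replicate lay above the wt arrays (12.68 against 11.42 to 12.34). For *Hsd3b1* it lay below them (14.09 against 14.46 to 14.50), and the genotypes did not overlap. The median of the Leydig cell markers was -0.37 without *Prss55*-/- replicate 2 and between -0.84 and -0.53 with any other array left out. The 7 markers of macrophages were all negative (median -0.12), and their median became -0.21 with *Prss55*-/- replicate 1 left out, -0.20 with wt replicate 2 left out and -0.070 with wt replicate 3 left out. The 5 of peritubular and vascular cells were all negative too (-0.097). The medians of spermatogonia, spermatocytes and Sertoli cells were 0.023, 0.074 and -0.033, and ran from -0.016 to 0.047, from 0.029 to 0.082 and from -0.066 to -0.016 with 1 array left out. That of spermatogonia was negative with *Prss55*-/- replicate 3 (-0.016) or wt replicate 3 (-0.0086) left out. That of blood was -0.086, and it was positive without *Prss55*-/- replicate 2 (0.025) and without wt replicate 1 (0.12). Of 6 epididymal markers only 2 passed the filter, *Lcn9* and *Lcn10*, both dim, with differences of 0.53 and 0.47, a median of 0.50 and one of 0.28 without wt replicate 1. *Lcn10* was well above background on 3 *Prss55*-/- arrays but only 1 wt array. It thus passed the filter through the genotype where it was higher, which favours a positive difference for it and for that median. The part of these cell types in the differences of *Tnp2*, *H1fnt* and *Brdt* was not tested.

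The promoters of all 9 genes were read from RefSeq (GRCm38.p6), from 250 bases before to 50 after each start site, on both strands. The activator CREM, which switches on many genes of round spermatids, binds the palindrome TGACGTCA and relatives of it. The full palindrome was in 0 of the 9 promoters and in 1.79% of 32851 promoters. The looser motif TGANGTCA, which includes it, was in 4 of the 9 and in 8.83% of all promoters. These 4 windows are shown because TGANGTCA was, of the motifs searched, the one found in most of these promoters, with the match in capitals and each read along its gene's strand.
Tnp1, chr1:73015975-73016004: gcaaaggttagTGATGTCAcaagagagctg
Prm1, chr16:10796869-10796898: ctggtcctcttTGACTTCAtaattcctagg
Prm3, chr16:10790956-10790985: tggagcctttgTGAGGTCAgtgccacaccc
Hils1, chr11:94967575-94967604: aatggccccctTGAGGTCActgcagagata
The *Hils1* window is on the plus strand of the genome and the other windows on the minus strand, and in *Prm1* the motif runs along the opposite strand of the gene. The match begins 94 bases before the start site in *Tnp1*, 64 in *Prm1*, 60 in *Prm3* and 7 in *Hils1*. *Tnp2* and *H1fnt* had no match to TGANGTCA in this window. The half-site TGACG was in the promoter of *H1fnt* alone among the 9, starting 180 bases before the start site, and in 20.8% of all promoters. The letters TATATA were in the promoters of *Tnp2*, *Prm2* and *Hist1h1t* (5.67% of all promoters) and TATAAA in that of *Prm2* (13.6%). A match describes letters only.

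The genes whose normalized log2 signals ran most like those of the brightest probes were picked by Pearson's r over the 6 arrays, as a description of the highest values among all tested probes. They were *Rgs17*, *Cdc6* and *Sptbn4* for *Prm1* (r = 0.998, 0.993 and 0.982), *M6pr*, *Rab34* and *Mdh2* for *Tnp1* (0.993, 0.990 and 0.987) and *Ptprf*, *Naa25* and *Tmem129* for *Brdt* (0.999, 0.997 and 0.995). All 9 likenesses were with genes that are no members, and the values of *Prm1* and *Tnp1* behind them moved within the top 4 ranks of the scale.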

How the data were processed

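Per array, the authors deposited scanner output (Agilent Feature Extraction 10.7, per the labels), whose processed signal is a linear intensity corrected for background within the array. A deposited matrix of quantile-normalized log2 values served as an alternative. Control spots and outlier spots were left out (2 values missing among tested probes), signals under 1 were set to 1, and log2 signals were quantile-normalized, as in the study's methods. Two-sided tests between genotypes used lmFit and eBayes of limma 3.58.1 (R 4.3.3), and p was adjusted by Benjamini-Hochberg over 28606 probes. A gene was read by its brightest probe. Text names all members, called companion genes with the 2 largest differences of each list, the 10 brightest genes and 3 likest genes. Members and lists were chosen with earlier results of these data known. Labels do not say more of the replicates than that they are separate mice, and the number of arrays limits the precision. Alternatives covered scaling, background, filter, test, slide, replicate block and left-out arrays; spike-in scaling and marker medians with an array left out were chosen after seeing the data. Code was tested on simulated data. Positions are those of the array annotation (mm9).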

Additional observations from a re-analysis of the deposited data

How the results depend on the processing

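The count of called member probes was 0 under all 17 alternatives. The count of all tested probes called, 346, was 140 with no filter and 87 by the methods' t-test with Benjamini-Hochberg adjustment. It was 44 to 862 with 1 array left out. Without *Prss55*-/- replicate 1, 2 or 3 it was 862, 57 and 44 in turn. Without wt replicate 1, 2 or 3 it was 67, 137 and 387. Called companion genes numbered 1, but 0 by the methods' t-test and 0 to 4 with 1 array left out. The members' median, -0.039, was 0.013 with median scaling and -0.048 to -0.011 with 1 array left out. The *Prss55* difference of -0.90 had an adjusted p of 0.071 by the methods' t-test and was -0.96 to -0.84 with 1 array left out. A figure legend of the paper speaks of 3 pairs of wt and *Prss55*-/- mice, without saying how they were paired or numbered. Same-numbered arrays had correlations of deviations of -0.054, -0.023 and -0.11, and 0 of 3 numbers matched best with itself. With so few arrays these values cannot show whether the mice were paired. With the replicate block 13 probes and 0 companion genes were called, and *Prss55* (-0.90) had an adjusted p of 0.101. With slide as a random block (correlation 0.036) 287 probes were called. The cause of these shifts was not tested. Signals near the top of the scale limit what *Tnp1*, *Prm1* and *Prm2* could show.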
